A study of Mus musculus with 70 samples.

Results

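Serotonin reaches the brain regions that control energy balance from neurons of the brainstem raphe, and it acts there on many receptors. The 9 genes described here are Tph2, Slc6a4 and Fev, which mark the neurons that make serotonin, and the receptor genes Htr1a, Htr1b, Htr2a, Htr2c, Htr4 and Htr7. They were taken by name from the 34677 genes of the gene-level table and followed through all 24 groups of libraries. All 9 passed the filter on low counts and were among the 19980 genes tested.

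The series held 70 mRNA libraries, with 57 from 18 regions of adult C57BL/6 mice at P56, 9 from 4 regions of embryos at E14.5 and 4 from 2 clones of C57BL/6 mouse embryonic stem cells (mESC). The labels name no altered gene and no agent for any group, and the study's methods give the mice as male adults and embryos of the C57BL/6NTac substrain. Tissue was punched from frozen sections and pooled from several mice for each brain library, except for 1 nucleus accumbens library from a single mouse, so the spread between replicates is a spread between pools. Groups held 2 to 4 libraries apart from the embryonic forebrain with 1, and punches of different regions can come from the same mice.

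The adult cortical groups were the frontal pole (FRP), the anterior cingulate area (ACA) and the entorhinal area (ENT). The nucleus accumbens (ACB) and the ventral tegmental area (VTA) stood for the reward system. Hypothalamic punches covered the paraventricular (PVH), dorsomedial (DMH), ventromedial (VMH) and arcuate (ARH) nuclei and the lateral hypothalamic area (LHA). The hindbrain nuclei were the parabrachial nucleus (PB), the nucleus of the solitary tract (NTS) and the dorsal-vagal complex (DVC). The cerebellum gave the cerebellar nuclei (CBN), central lobule II (CENT2), the culmen (CUL4-5), the uvula (UVU) and the flocculus (FL). Embryonic groups were the forebrain (F), the terminal and peduncular hypothalamus (THy/PHy), the midbrain (M) and the hindbrain (H), and the mESC clones were B6-1 and B6-2.

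Serotonin neurons hydroxylate tryptophan with the enzyme encoded by Tph2, take released serotonin back up through the transporter encoded by Slc6a4, and owe their identity in part to the ETS transcription factor encoded by Fev. Their cell bodies lie in the raphe nuclei of midbrain and hindbrain, while their axons reach nearly the whole brain. The mRNA of these 3 genes is thus found where the cell bodies are. Receptor mRNA is found in the cells that make the receptor, which for receptors on axon terminals can be away from where serotonin acts. Htr1a and Htr1b encode inhibitory receptors, Htr2a and Htr2c excitatory receptors that signal through phospholipase C, and Htr4 and Htr7 receptors that raise cyclic AMP. Htr2c is known for its part in the control of food intake, and it is also highly expressed in the epithelium of the choroid plexus.

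Total estimated counts ran from 9074581 (H replicate 1) to 22229582 (F replicate 1), with a median of 17016935. Marker lists with a region of their own were highest, by group mean of summed levels, in groups that matched the labels. These were dopamine neuron genes in VTA, noradrenaline neuron genes in PB, striatal genes in ACB and cortical excitatory genes in ACA. Granule and Purkinje genes were highest in CUL4-5, hypothalamic peptide genes in LHA, hindbrain Hox genes in H and pluripotency genes in B6-1. In H the Hox sums were 297, 322.3 and 62.78 TPM in replicates 1, 2 and 3, against 128.8 to 168.6 TPM in DVC. Among the other lists, serotonin neuron genes were highest in VTA (599.6 TPM), hippocampal genes in ACB (387.1) and pituitary genes in ARH (101). Mitochondrial transcripts took 39.6% of the TPM (transcript abundance scaled for transcript length and library depth) of VTA replicate 1 and 22.6% of H replicate 1. The 8 choroid plexus markers summed to over 500 TPM in 12 libraries, which bears on Htr2c below. In bulk tissue, fewer cells of a type and less RNA per cell cannot be told apart.

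In GRCm38, Tph2 lies on the minus strand of chromosome 10 from 115078641 to 115185022, Slc6a4 on the plus strand of chromosome 11 from 76998603 to 77032340, and Fev on the minus strand of chromosome 1 from 74881509 to 74885419. Since the 3 genes had like patterns over the libraries, the 250 bases before each RefSeq start are shown, from RefSeq for GRCm38.p6 and written 5′ to 3′ on the strand of the gene. The positions above are from GENCODE, whose starts differ from those of RefSeq by a few bases for Slc6a4 and Fev. Capitals mark GGAA, the core that ETS factors such as Fev bind, or its reverse complement TTCC.
Tph2, chr10:115185023-115185272, minus strand: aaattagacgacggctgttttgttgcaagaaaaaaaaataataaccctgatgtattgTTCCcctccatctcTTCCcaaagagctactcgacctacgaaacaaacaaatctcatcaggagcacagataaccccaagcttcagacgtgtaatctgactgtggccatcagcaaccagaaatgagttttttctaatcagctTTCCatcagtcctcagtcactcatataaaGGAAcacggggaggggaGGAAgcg
Slc6a4, chr11:76998347-76998596, plus strand: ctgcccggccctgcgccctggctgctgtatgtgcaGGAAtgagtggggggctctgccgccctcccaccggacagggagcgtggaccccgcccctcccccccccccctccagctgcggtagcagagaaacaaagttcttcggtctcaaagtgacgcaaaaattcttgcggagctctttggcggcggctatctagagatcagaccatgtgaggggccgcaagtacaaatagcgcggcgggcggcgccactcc
Fev, chr1:74885409-74885658, minus strand: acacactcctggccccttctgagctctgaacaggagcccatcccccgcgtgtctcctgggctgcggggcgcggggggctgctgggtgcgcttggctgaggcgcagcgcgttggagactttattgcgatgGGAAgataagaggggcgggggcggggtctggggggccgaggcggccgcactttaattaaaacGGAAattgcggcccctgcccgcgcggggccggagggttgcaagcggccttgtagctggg
The Tph2 window held 5 matches, 2 on its own strand and 3 on the other, the Slc6a4 window 1 and the Fev window 2. Such matches are common, since 93.4% of 32851 promoter windows of the same length held at least 1 and the median was 3. The longer core CGGAA, which contains GGAA, occurred at 1 position in the Fev window and in neither of the others, against 25.2% of all windows with a match on either strand. The Tph2 window had the lowest GC content of the 3, at 43.6% against 64.8% for Slc6a4 and 68% for Fev (median of all windows, 52.4%), and it alone held TATAAA on its own strand, as 7.59% of windows did.

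Tph2, Slc6a4 and Fev were concentrated in a few libraries of CENT2, PB, VTA and M. Tph2 reached 146.1 and 65.02 TPM in CENT2 replicates 1 and 2 but 0.2703 and 3.268 TPM in replicates 3 and 4. In PB it was 79.8, 8.687 and 31.78 TPM, and in VTA 1.004, 45.06 and 11.3 TPM. Within each of these regions the highest library exceeded the lowest by far more than the region means differed, and the regions overlapped. Group means were 53.7 ± 68.5 TPM in CENT2 (SD, n = 4), 40.1 ± 36.3 in PB (n = 3), 19.1 ± 23.1 in VTA (n = 3) and 4.34 ± 3.94 in M (n = 2), and each of the 23 pairs of neighbours in the order of the 24 groups overlapped. In VTA, mitochondrial transcripts took 39.6%, 6.02% and 14.2% of the TPM of replicates 1, 2 and 3, the reverse of the order of Tph2, and their part in the spread was not tested.

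Slc6a4, the reuptake transporter, followed the same libraries. It measured 78.43, 46.92, 0.2165 and 1.701 TPM in CENT2, 52.63, 3.987 and 22.7 in PB, and 0.6155, 24.88 and 6.458 in VTA. Fev, the transcription factor, was lower throughout, with 14.96, 7.729, 0 and 0.7961 TPM in CENT2, 5.602, 0.4382 and 2.577 in PB, and 0.5229, 3.787 and 1.045 in VTA. The ranking of replicates within PB and VTA was thus the same for all 3 genes. The 8 libraries with at least 5 TPM of Tph2 held 92.7% of its summed TPM over 70 libraries, 94.1% of that of Slc6a4 and 76.7% of that of Fev. In the other 62 libraries the highest levels were 3.268 TPM for Tph2, 2.302 for Slc6a4 and 2.795 for Fev.

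**Figure D1:**
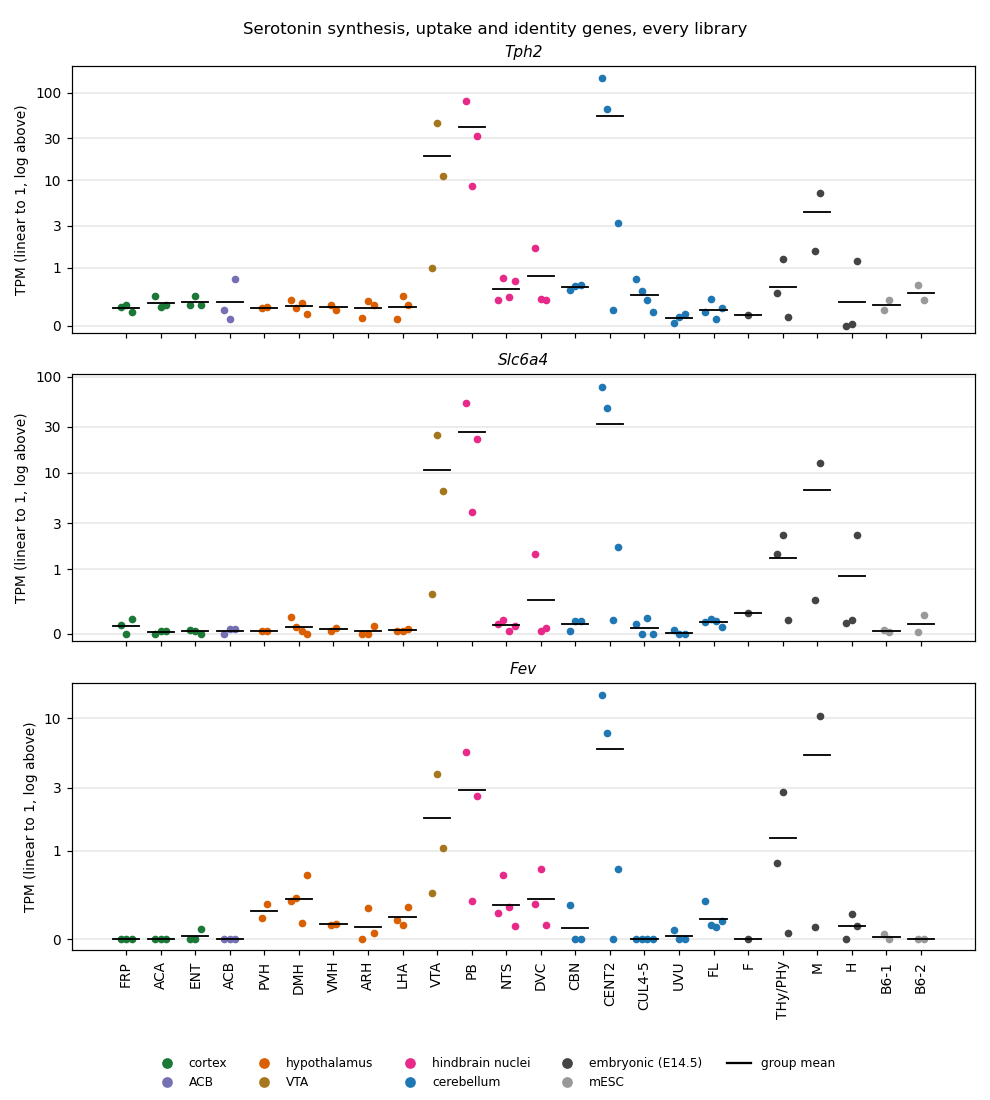
Level of Tph2, Slc6a4 and Fev (TPM, axis linear to 1 and log above) in every library, by group; each point is a library and each bar the group mean. The 3 genes are high in the same libraries of CENT2, PB, VTA and M, and replicates of these groups are far apart.

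As a description over the 70 libraries, which differ in depth and share mice between regions, Pearson's r of log2(TPM + 0.5) was 0.963 between Tph2 and Slc6a4, 0.847 between Tph2 and Fev, and 0.888 between Slc6a4 and Fev. The ratio of Slc6a4 to Tph2 TPM was narrow where both reached 1 TPM: it ran from 0.459 to 0.855 in 9 adult libraries and from 1.79 to 1.92 in 3 embryonic libraries. The embryonic and adult ratios of these libraries did not overlap, and age and batch cannot be told apart here. This holds under the filter only. M replicate 1, left out by it, had 1.549 TPM of Tph2 and 0.5309 TPM of Slc6a4. It was the only embryonic library with less Slc6a4 than Tph2. Fev was listed at 0 in 26 libraries, Slc6a4 in 11 and Tph2 in 1. A count of 0 allows up to 3 counts, or 0.136 to 0.332 CPM (estimated counts scaled to library size) depending on the library, for counting error only.

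In CENT2, replicates 1 and 2 also held the highest CENT2 levels of other serotonin neuron genes. Ddc was at 87.48, 42.06, 6.287 and 6.118 TPM in replicates 1, 2, 3 and 4, and Slc18a2 at 31.48, 16.17, 3.376 and 3.432 TPM. Lmx1b was at 5.177, 2.545, 0.4827 and 1.496 TPM, and Gata3 at 10.26, 2.17, 0.1089 and 1.363 TPM. The 7 markers of serotonin neurons, these with Tph2, Slc6a4 and Fev, summed to 373.9 and 182.6 TPM in replicates 1 and 2. The sums were 10.74 and 18.17 TPM in replicates 3 and 4. Much of the higher sums was Tph2 and Slc6a4. Granule and Purkinje cell markers summed to 2163 TPM in replicate 1 and to 3300, 3290 and 3065 TPM in the others. Replicate 1 held the most Htr1a (6.301 TPM), Htr2a (3.186), Htr2c (14.32) and Htr7 (6.101) of the 4 CENT2 libraries as well. The cerebellar markers were thus lower in replicate 1 alone. The part of both libraries in the results was not tested, and the values without both are given beside each comparison that they change. Without them the CENT2 means were 1.77 TPM for Tph2, 0.959 for Slc6a4 and 0.398 for Fev, and PB had the highest mean of Tph2 and Slc6a4 and M that of Fev.

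Against the other adult regions, the 3 genes were higher in VTA, the dopamine cell group of the ventral midbrain. The fold changes of Tph2 and Slc6a4 were 5.04 ± 0.45 and 6.45 ± 0.56 on the log2 scale (SE; adjusted p = 2.21e-13 and 8.84e-14 by edgeR's quasi-likelihood test with Benjamini-Hochberg adjustment), and Fev passed with an adjusted p of 2.29e-06. A fold change of Fev is not given, since it was listed at 0 in many libraries. These were 3 of the 9 genes called higher and none lower, where 6.89% of all genes tested were higher and 3.65% lower. The VTA libraries overlapped the others, which include CENT2 and PB, and the median over the other 54 adult libraries was 0.384 TPM for Tph2 and 0.0754 TPM for Slc6a4. Without VTA replicate 2 the fold changes were 3.66 for Tph2 and 4.97 for Slc6a4, and all 3 calls held. That library had the lowest mitochondrial share of the VTA libraries, at 6.02% against 39.6% in replicate 1.

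Dopamine and serotonin neurons share several genes, and VTA was rich in these. Of the 28 other genes of serotonin biology that were tested, 11 were higher in VTA and 1 lower. Ddc, which makes serotonin and dopamine from their precursors, was at 198.4 to 571.2 TPM in VTA and at most 93.44 TPM elsewhere in the adult (log2 fold change 4.71 ± 0.21, adjusted p = 1.02e-24), and Slc18a2, the vesicular monoamine transporter, differed by 4.94 ± 0.22 (adjusted p = 3.01e-24). Dopamine neuron markers summed to 466.1, 1348 and 1514 TPM in VTA replicates 1, 2 and 3, and replicate 2 had the most Tph2 of the 3. Both cell types use Ddc and Slc18a2, so these genes do not tell them apart in this region.

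In the hindbrain nuclei, Tph2, Slc6a4 and Fev were likewise higher than in the other adult regions, with their highest levels in PB. The log2 fold changes for PB, NTS and DVC together were 2.24 ± 0.48 for Tph2 (adjusted p = 9.38e-05) and 3.17 ± 0.86 for Slc6a4 (adjusted p = 0.0015), and Fev had an adjusted p of 0.000552. Without DVC replicate 1, which had the most Slc6a4 among the DVC and NTS libraries (1.435 TPM), the fold change of Slc6a4 was 2.34 with an adjusted p of 0.158. Set against DVC and NTS alone, PB was higher by 5.67 ± 0.76 for Tph2 (adjusted p = 4.08e-07) and by 6.94 ± 0.94 for Slc6a4 (adjusted p = 4.48e-07). The PB libraries lay above all 7 DVC and NTS libraries for both genes, with at most 1.678 TPM of Tph2 in the latter.

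Together with Fev (adjusted p = 0.0395), these were the 3 genes of the 9 that differed between PB and the caudal nuclei, all higher, where 1.47% of genes were higher and 0.836% lower. Without PB replicate 1 the fold changes were 4.72 for Tph2 and 5.99 for Slc6a4, and without DVC replicate 1 that of Slc6a4 was 8.18. The Fev call was lost without any of 8 of the 10 libraries, with adjusted p up to 0.498. Of the other serotonin genes, 10 of 28 were higher in PB and none lower. Slc18a2 differed by 3.10 ± 0.40, Gch1, which starts synthesis of the cofactor of Tph2, by 2.17 ± 0.34, the transcription factor Gata3 by 2.69 ± 0.43 and Ddc by 1.88 ± 0.37, each with PB libraries above all DVC and NTS libraries. Noradrenaline neuron markers summed to 140.8, 147.2 and 263.6 TPM in PB and to 18.93 to 42.68 TPM in the DVC and NTS libraries, and these cells use Slc18a2, Ddc and Gch1 too.

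In the embryo the genes of serotonin synthesis and uptake were highest in M replicate 2. Tph2 measured 1.549 and 7.121 TPM in the M libraries, 0, 0.03788 and 1.198 TPM in H, and 0.5732, 1.261 and 0.1544 TPM in THy/PHy. Slc6a4 measured 0.5309 and 12.74 TPM in M, 0.1641, 0.2185 and 2.302 in H, and 1.443, 2.258 and 0.2166 in THy/PHy. Fev reached 10.38 TPM in M replicate 2 but 0.1351 TPM in replicate 1, and 2.795 TPM in THy/PHy replicate 2. In M and H a single library thus held most of both genes, and in THy/PHy replicate 3 was the lowest for all 3 genes.

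H was lower than M for Tph2 (log2 fold change -2.99 ± 1.18, adjusted p = 0.0482, libraries apart) and for Fev (adjusted p = 0.00792), which were 2 of the 9 genes, none being higher, where 2.51% of genes were lower and 6.02% higher. Both calls rested on M replicate 2: without it the log2 difference of Tph2 was -0.49 (adjusted p = 0.9) and that of Fev 1.21 (adjusted p = 0.765). The Tph2 call was also lost without H replicate 1 (adjusted p = 0.185) or H replicate 2 (0.151), and its log2 difference was -6.74 without H replicate 3 and -2.58 with the replicate number as a block (adjusted p = 0.0977). The Fev call was lost without H replicate 1 as well (adjusted p = 0.0624). In a fit of the M and H libraries only, Tph2 was not called and Fev was not tested. Among the other serotonin genes, 8 of 28 were lower in H and 3 higher. The transcription factor Gata3 was at 12.43 to 33.6 TPM in H and 94.86 to 123.1 TPM in M (-2.24 ± 0.54, adjusted p = 0.00192), Foxa2, a floor plate factor, was at most 0.609 TPM in H and 13.27 to 18.92 TPM in M, and Ddc differed by -3.08 ± 0.60 (adjusted p = 0.00022).

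The receptors were spread over more adult regions than the first 3 genes. Htr1a, an autoreceptor on serotonin neurons and an inhibitory receptor on their targets, was at chromosome 13 from 105443639 to 105448122 on the plus strand, in 1 exon. It was highest in cortex, with 10.93, 14.49 and 8.492 TPM in ENT, and means of 11.3 ± 3.02 TPM in ENT, 9.84 ± 2.67 in FRP and 9.55 ± 0.225 in ACA (SD, n = 3 each). DVC (9.13 ± 1.299) and PB (8.57 ± 0.503) followed, and 21 of the 23 pairs of neighbours in the order overlapped. The lowest adult mean was 0.27 ± 0.167 TPM in UVU.

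Htr1b, an inhibitory receptor found on axon terminals, was most abundant in ACB. It measured 41.54, 37.49 and 22.43 TPM there (mean 33.8 ± 10.1, SD), and the ACB libraries lay above every other library, with VMH next at 18.83 and 12.95 TPM. CUL4-5 (13.2 ± 1.53 TPM, n = 4) and CENT2 (12.6 ± 2.11, n = 4) came after VMH and overlapped it. Unlike the other receptors, Htr1b was at 4.321 TPM or more in every cerebellar library. The gene lies on chromosome 9 from 81628291 to 81633828 on the minus strand, with the transcript gene D430036J16Rik on the other strand. Slc6a4 likewise overlaps Gm12343 on the other strand. Whether counting used strand is not given in the sources used here, so reads of such pairs may not have been told apart, for Slc6a4 as for Htr1b.

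Htr2a, the main target of classical hallucinogens, set the frontal cortex apart. It was at 34.36, 24.38 and 27.79 TPM in ACA and 17.58, 27.07 and 21.7 TPM in FRP, above every library of other groups. ENT followed at 12.22, 12.65 and 8.624 TPM (mean 11.2 ± 2.21), with ACB overlapping it at 10.9 ± 3.26 TPM (n = 3). Means in the other adult regions fell from 7.17 ± 2.11 TPM in DVC to 0.427 ± 0.102 in UVU. The gene lies on chromosome 14 from 74640840 to 74709494, plus strand.

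Htr2c, the receptor tied to feeding, had the highest level of the 6 receptors. LHA measured 59.26, 57.88 and 86.83 TPM (mean 68.0 ± 16.3) and ACB 64.92, 58.77 and 62.96 TPM (62.2 ± 3.14), and these 2 overlapped. PB (51.7 ± 1.80, n = 3), DVC (49.1 ± 2.12, n = 3) and DMH (46.1 ± 4.18, n = 4) came next, with ACB apart from PB. The lowest adult mean was 2.84 ± 2.44 TPM in CUL4-5. The gene lies on chromosome X from 146962513 to 147197277, plus strand, with 8 small RNA genes inside it on the same strand.

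Choroid plexus markers moved with Htr2c in part of the libraries. The 8 markers (Ttr, Kl, Folr1, Aqp1, Clic6, Kcnj13, Slc4a5 and Otx2) summed to over 500 TPM in all 3 CBN and all 3 H libraries, in FL replicates 1, 2 and 3, and in NTS replicate 1, UVU replicate 1 and M replicate 2, with a range of 627.1 to 12870 TPM. Htr2c was 60, 25.66 and 25.36 TPM in CBN, where the markers summed to 12870, 3570 and 5458 TPM. In UVU it was 8.054 TPM in replicate 1 and 0.6824 and 0.6685 TPM in the others, and in M it was 8.498 TPM in replicate 2 and 1.482 TPM in replicate 1. The library with the most markers had the most Htr2c of its group in CBN, FL, UVU, NTS, M and H. In the 9 libraries of ACB, LHA and PB, the groups with the highest mean Htr2c, the markers summed to between 4.717 and 22.75 TPM, below every choroid-rich library.

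**Figure D2:**
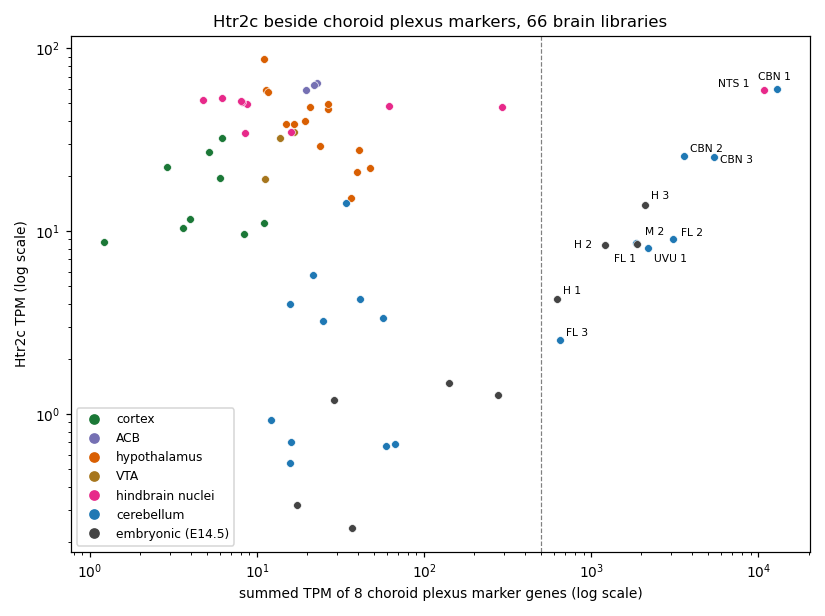
Htr2c (TPM, log axis) against the summed level of 8 choroid plexus markers (TPM, log axis) in each of 66 brain libraries, coloured by area, with a dashed line at 500 TPM. Libraries of ACB, LHA and PB combine high Htr2c with marker sums of 4.717 to 22.75 TPM, while the 12 labelled libraries exceed 500 TPM of markers.

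Htr4, which raises cyclic AMP, was the lowest of the receptors. It was at 2.765 and 2.628 TPM in VMH, 3.905, 1.648 and 2.502 in ACB, and 2.565, 2.077 and 2.939 in ARH, and these 3 regions overlapped. ARH was apart from DMH, the next region, at 1.68 ± 0.302 TPM (n = 4). Its mean reached 1 TPM in 10 adult regions and in none of the embryonic ones. The estimated count behind Htr4 was 0 to 152 per library with a median of 24, so its values rested on few counts. It lies on chromosome 18 from 62324204 to 62496577, plus strand.

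Htr7, which also raises cyclic AMP, marked PVH and DMH. It measured 34.94 and 39.74 TPM in PVH and 26.44, 25.84, 26.9 and 27.53 TPM in DMH, and each was apart from all lower groups. PB (20.2 ± 1.304), VMH (19.6 ± 0.626), LHA (19.3 ± 3.28), NTS (17.1 ± 0.816), DVC (17.04 ± 1.96) and ARH (16.5 ± 1.07) overlapped in part, and ARH lay apart from ENT at 8.56 ± 0.875 TPM. The lowest adult mean was 0.855 ± 0.568 TPM in CUL4-5. The gene lies on chromosome 19 from 35958734 to 36057507, minus strand.

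**Figure D3:**
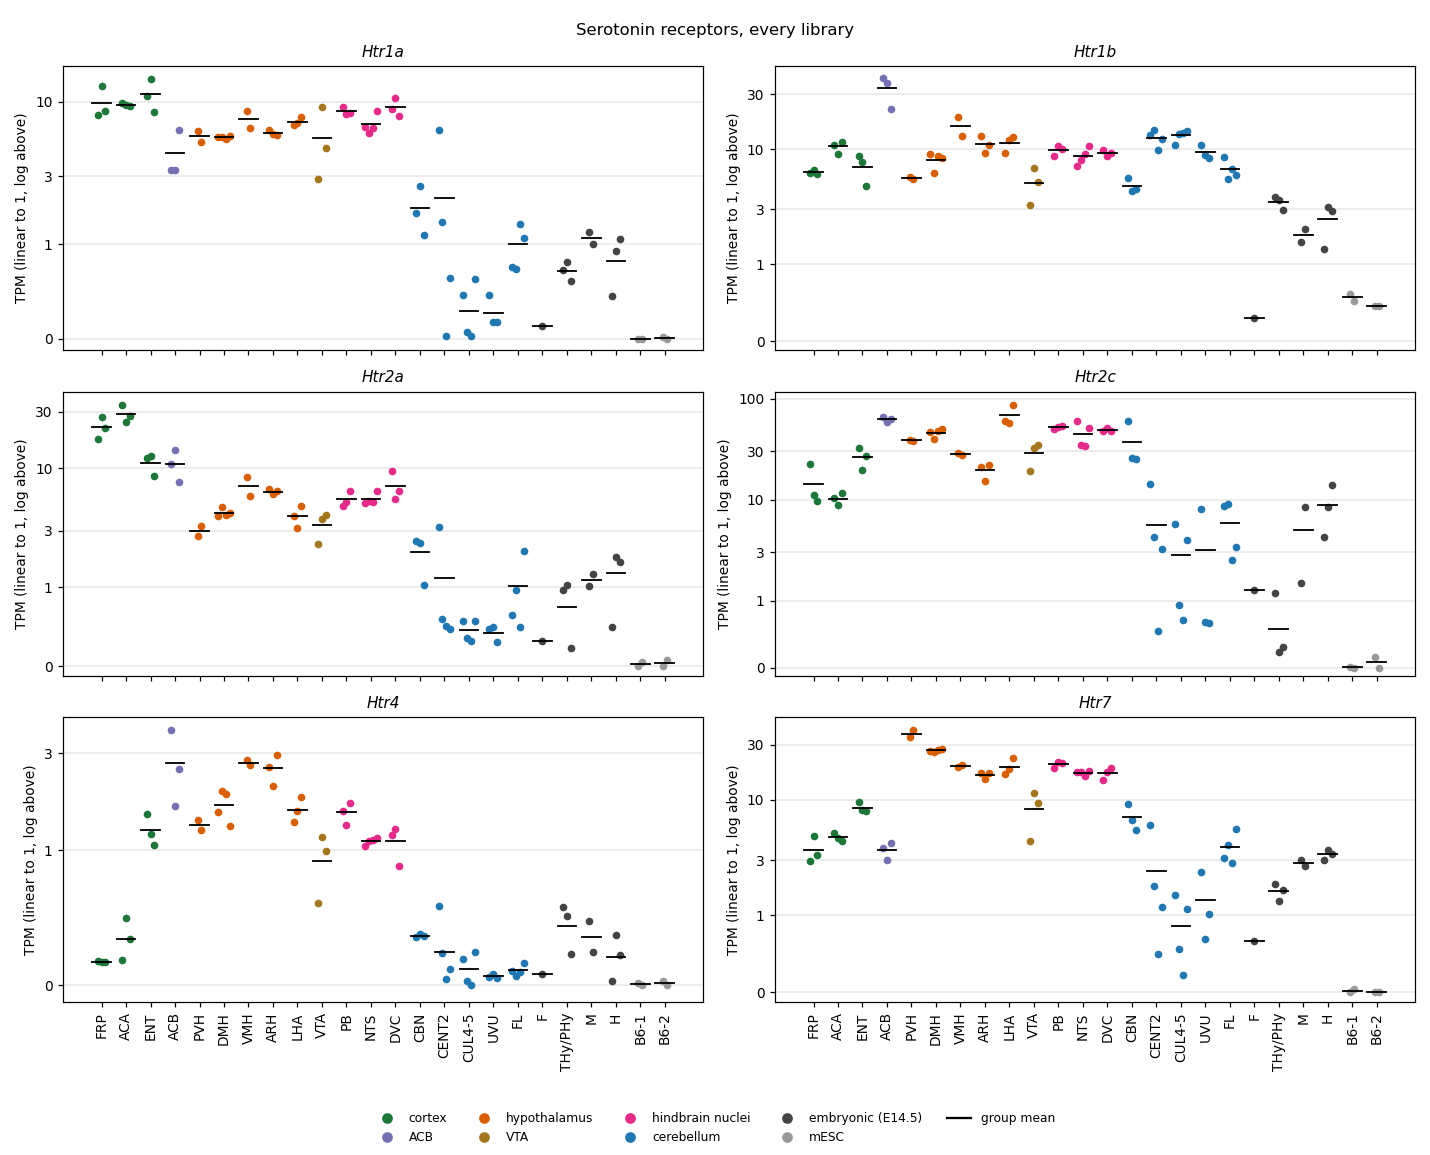
Level of the 6 receptor genes (TPM, axis linear to 1 and log above) in every library, by group; each point is a library and each bar the group mean. Htr2a stands out in ACA and FRP, Htr1b in ACB, Htr2c in LHA and ACB, and Htr7 in PVH and DMH.

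The summed level of the 6 receptors was highest in ACB (118 ± 11.1 TPM), LHA (111 ± 22.2) and PB (97.3 ± 4.16) and lowest among adult regions in CUL4-5 (17.7 ± 2.99) and UVU (14.6 ± 6.71; SD, n = 3, or 4 for CUL4-5). The leading receptor, read from group means, changed with the area. Htr2a made up 39.2% of the sum in FRP and 44.9% in ACA. Htr2c led in ENT, ACB, every hypothalamic nucleus, VTA, the hindbrain nuclei and CBN, with 61.1% in LHA and 69.7% in CBN. Htr1b led in the cerebellar cortex, with 52.1% in CENT2, 74.2% in CUL4-5, 64.0% in UVU and 35.9% in FL. Htr7 came second in every hypothalamic nucleus, with 40.8% in PVH, where Htr2c had 42.04%. Some single libraries differed from their group mean. Htr2c exceeded Htr1b in CENT2 replicate 1 (14.32 against 13.35 TPM) and FL replicates 1 (8.575 against 8.486) and 2 (9.02 against 5.552). In FRP replicate 1 Htr2c exceeded Htr2a (22.43 against 17.58 TPM). Htr7 exceeded Htr2c in PVH replicate 2 (39.74 against 38.32 TPM) and ARH replicate 2 (15.22 against 15.09).

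**Figure D4:**
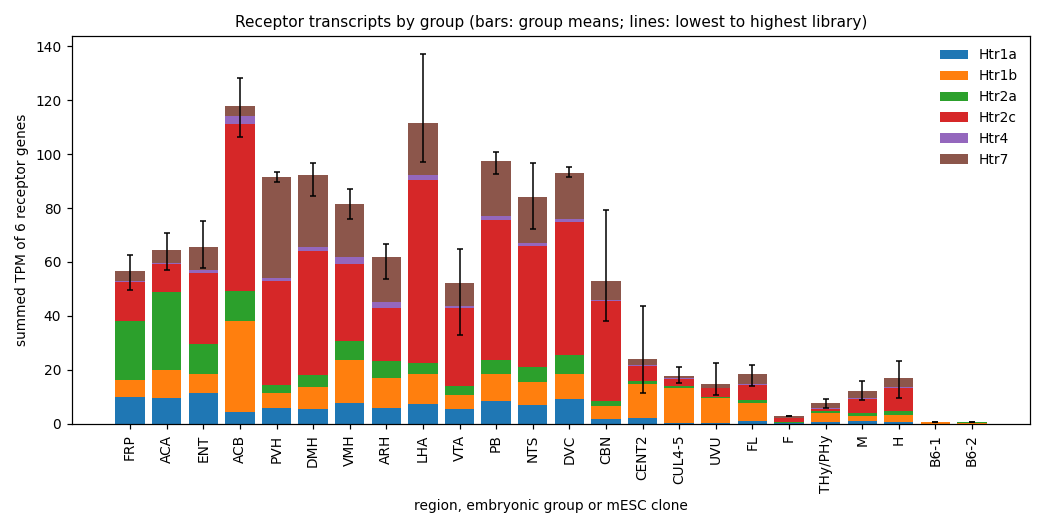
Summed level of the 6 receptor genes by group (TPM, stacked bars of group means in a colour for each gene); lines run from the lowest to the highest library sum. In the group means, Htr2a is the largest part in FRP and ACA, Htr1b in the 4 groups of cerebellar cortex, and Htr2c in the other adult groups. Some single libraries differ.

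Cortex differed from the other adult regions in 2 of the 9 genes, Htr1a and Htr2a, both higher, where 8.17% of genes were higher and 7.95% lower. Htr2a ran from 8.624 to 34.36 TPM in the 9 cortical libraries (median 21.7) and from 0.3101 to 14.24 TPM in the 48 others (median 3.98), a log2 fold change of 2.82 ± 0.15 (adjusted p = 4.51e-23). Htr1a ran from 8.037 to 14.49 TPM (median 9.53) against 0.02561 to 10.55 TPM (median 5.68), or 1.76 ± 0.20 (adjusted p = 3.97e-11). Both ranges overlapped. Of the 28 other genes, 7 were higher and 11 lower, and the higher ones included Htr3a, the receptor that is an ion channel (2.62 ± 0.19), Htr1f (2.31 ± 0.19), Htr6 (1.93 ± 0.14) and Htr5a (1.10 ± 0.08).

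Within cortex, ENT had less Htr2a and more Htr4 and Htr7 than ACA and FRP. These 3 of the 9 genes were called, 2 higher and 1 lower, where 1.96% of genes were higher and 1.70% lower. Htr4 was at 1.513, 1.204 and 1.06 TPM in ENT and at 0.1729 to 0.5017 TPM in ACA and FRP, a log2 fold change of 2.40 ± 0.40 (adjusted p = 1.16e-05). Htr7 differed by 1.06 ± 0.30 (adjusted p = 0.012), and the call was lost without ENT replicate 1 (adjusted p = 0.0571) and, with 0.99, without FRP replicate 1. Htr2a differed by -1.13 ± 0.34 (adjusted p = 0.0197), and its adjusted p was 0.0515, 0.0559 and 0.125 without ENT replicates 1, 2 and 3. The 3 ENT and 6 other libraries did not overlap for these 3 genes, and the share of all genes without overlap is not given here. Htr2c, at 1.19 ± 0.49, had an adjusted p of 0.114, which was 0.0352 without the choroid-rich libraries and 0.0105 in a fit of the compared libraries only.

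ACB was higher for Htr1b, Htr2a, Htr2c and Htr4 and lower for Htr7, so 4 of the 9 genes were higher and 1 lower where 7.30% of genes were higher and 5.49% lower. The log2 fold changes against the other adult regions were 1.77 ± 0.10 for Htr1b (adjusted p = 5.28e-21), 2.10 ± 0.26 for Htr4 (2.68e-09), 1.54 ± 0.24 for Htr2a (5.19e-07) and 1.67 ± 0.35 for Htr2c (9.99e-05). Htr7 was at 3.025 to 4.24 TPM in ACB and differed by -1.18 ± 0.29 (adjusted p = 0.00081). Only Htr1b was apart from the other 54 adult libraries. Of the other receptors, Htr6 (2.64 ± 0.19), Htr1d (2.52 ± 0.21), Htr1f (2.41 ± 0.27) and Htr3a (1.14 ± 0.31) were higher too. In all, 5 of the 28 other genes were higher and 6 lower.

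The hypothalamus was higher for Htr7, Htr4 and Htr2c and lower for Tph2, so that 3 of the 9 genes were higher and 1 lower where 6.11% of genes were higher and 2.74% lower. Htr7 ran from 15.22 to 39.74 TPM in the 14 hypothalamic libraries (median 21.5) and from 0.2311 to 21.07 TPM in the 43 others (median 4.84), and the log2 fold change was 2.04 ± 0.12 (adjusted p = 7.63e-20). Htr4 differed by 1.96 ± 0.17 (adjusted p = 9.09e-15) and Htr2c by 1.04 ± 0.21 (adjusted p = 4.52e-05). Htr2c was at the edge of the threshold, with 1.00 without LHA replicate 3 and 1.39 ± 0.19 (adjusted p = 4.4e-08) without the 12 libraries rich in choroid plexus markers. Tph2 was at 0.118 to 0.5094 TPM in every hypothalamic library. Its median of 0.337 TPM was near those of cortex (0.356), ACB (0.282) and cerebellar cortex (0.300). The medians of CBN (0.693), the hindbrain nuclei (0.798) and VTA (11.3) were higher. The log2 difference of Tph2 was -1.82 ± 0.55 (adjusted p = 0.00459), or -1.46 ± 0.40 (0.00178) without CENT2 replicates 1 and 2. Without these libraries Slc6a4 passed as lower (-2.03, adjusted p = 0.0441). Fev (adjusted p = 0.0187) and Htr1a (1.07, adjusted p = 1.8e-09) passed as higher, giving 7 calls in place of 4. Fev was at 0 to 0.7255 TPM in the hypothalamic libraries, from at most 5 estimated counts each. Its mean over the hypothalamic nuclei was 0.267 TPM, below VTA (1.785) and the hindbrain nuclei (1.237). Every FRP, ACA, ACB and CUL4-5 library was listed at 0. Of the 28 other genes, 4 were higher and 1 lower, and Htr3b, an ion channel subunit, was at 1.389 to 1.636 TPM in ARH and at most 0.2208 TPM in the other nuclei (4.43 ± 0.62, adjusted p = 4.75e-07).

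ARH, the nucleus with the hunger and satiety neurons, had none of the 9 genes called against the other hypothalamic nuclei. Of all genes, 4.71% were called higher and 2.19% lower. An unadjusted p below 0.05 was found for 2 of the 9 genes and for 6649 of all 19980 genes tested. Htr2c was nearest, at 21.05, 15.09 and 22.05 TPM in ARH and 27.88 to 86.83 TPM in the 11 others. The libraries did not overlap, and the log2 difference of -1.21 ± 0.50 had an adjusted p of 0.0744 (0.0464 without CENT2 replicates 1 and 2, 0.0211 without the choroid-rich libraries and 9.05e-06 in a fit of these 14 libraries only). Htr7 had -0.68 ± 0.28 (adjusted p = 0.0735).

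In the hindbrain nuclei 7 of the 9 genes were higher and none lower, where 5.17% of genes were higher and 2.67% lower. Beside Tph2, Slc6a4 and Fev these were Htr2c (1.49 ± 0.23, adjusted p = 1.66e-07), Htr7 (1.48 ± 0.14, 2.43e-13), Htr1a (1.30 ± 0.20, 1.55e-07) and Htr4 (1.08 ± 0.19, 2.09e-06). The Htr4 call was lost with limma, at 0.43 on log2(TPM + 0.5) and 0.84 on log2(TPM + 0.1). The Fev call was lost with limma on log2(TPM + 0.5) only. The 10 hindbrain libraries ran from 34.19 to 59.35 TPM for Htr2c and from 14.93 to 21.07 TPM for Htr7. Both ranges lay inside those of the 47 others. Without the choroid-rich libraries Htr2c differed by 1.73 ± 0.20 (adjusted p = 9.45e-10). Unlike the first 3 genes, none of the 6 receptors was called between PB and the caudal nuclei, with log2 differences from -0.27 ± 0.33 (Htr2a) to 0.39 ± 0.37 (Htr4).

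VTA had no receptor past both thresholds, although Htr2c (0.99 ± 0.38, adjusted p = 0.0323), Htr4 (0.97 ± 0.30, 0.00829) and Htr1a (0.94 ± 0.33, 0.0166) came close. Without CENT2 replicates 1 and 2 all 3 passed, at 1.09, 1.06 and 1.10, giving 6 calls in place of 3. Leaving out CENT2 replicate 1 alone also brought all 3 past the threshold, at 1.05, 1.02 and 1.04, and leaving out other single libraries, among them UVU replicate 1 (1.13, adjusted p = 0.006), brought Htr2c past it too. Without the choroid-rich libraries Htr2c was at 1.25 ± 0.31 (adjusted p = 0.00091).

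The cerebellum had lower Htr1a, Htr2a, Htr2c, Htr4 and Htr7 than the other adult regions, 5 of the 9 genes, with none higher, where 8.53% of genes were lower and 7.37% higher. The log2 differences were -3.30 ± 0.23 for Htr1a (adjusted p = 1.67e-18), -3.16 ± 0.18 for Htr2a (5.11e-22), -3.03 ± 0.21 for Htr4 (1.23e-18), -2.52 ± 0.15 for Htr7 (6.35e-21) and -2.51 ± 0.24 for Htr2c (3.11e-13). Median Htr1a was 0.693 TPM in the 18 cerebellar libraries against 7.09 TPM in the 39 others. Htr2c differed by -3.91 ± 0.37 (adjusted p = 2.48e-12) without the choroid-rich libraries, which removes CBN. Htr1b was the exception at -0.24 ± 0.06 (adjusted p = 0.000712), with a median of 9.30 TPM in the cerebellum and 9.11 TPM elsewhere.

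Inside the cerebellum, CBN held more of the same 5 receptors than the cortical lobules, where 11.0% of genes were higher and 5.47% lower. Htr2c, at 25.36 to 60 TPM in CBN and 0.5419 to 14.32 TPM in the 15 cortical libraries, differed by 3.35 ± 0.39 (adjusted p = 4.03e-10) and was the only one with libraries apart. All 3 CBN libraries were choroid-rich, so this difference could not be measured without them. Htr7 (2.21 ± 0.26, adjusted p = 6.59e-10), Htr4 (1.76 ± 0.40, 0.000191), Htr1a (1.66 ± 0.42, 0.000765) and Htr2a (1.66 ± 0.34, 4.33e-05) overlapped with the cortical libraries, of which CENT2 replicate 1 had the highest level of each. Without CENT2 replicates 1 and 2, Htr1a differed by 2.32.

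Embryonic receptors were measured at low levels. The sum over the 6 was 2.76 TPM in F, 7.57 ± 1.58 in THy/PHy, 12.3 ± 4.91 in M and 17.02 ± 6.84 in H (SD, n = 3 for THy/PHy and H, n = 2 for M). In THy/PHy, Htr1b led with 45.8% of the sum, whereas Htr2c led in H with 52.1%. The mean of M had 40.7% Htr2c, but this rested on the choroid-rich replicate 2 (8.498 TPM), and in replicate 1 Htr7 (3.033 TPM) and Htr1b (1.572) exceeded Htr2c (1.482). Htr2c was lower in THy/PHy than in M and H, at 0.237 to 1.195 TPM against 1.482 to 13.87 TPM with no overlap (log2 difference -4.22 ± 0.84, adjusted p = 0.000326), and this was 1 of the 9 genes, with none higher, where 1.74% of genes were lower and 1.44% higher. M replicate 2 and the H libraries were choroid-rich and those of THy/PHy were not, and without M replicate 2 the log2 difference was -3.21. The part of the choroid plexus in this difference was not tested.

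Against the adult hypothalamus, all 6 receptors were lower in THy/PHy with libraries apart. The share of all genes with libraries apart is not given here. Slc6a4 and Fev were higher, so 2 of the 9 genes were higher and 6 lower where 18.2% of genes were higher and 20% lower. The log2 differences were -6.74 ± 0.82 for Htr2c (adjusted p = 2.58e-10), -3.78 ± 0.37 for Htr7 (3.7e-13), -3.12 ± 0.51 for Htr1a (3.95e-07), -2.64 ± 0.40 for Htr2a (1.03e-07), -2.07 ± 0.41 for Htr4 (1.56e-05) and -1.79 ± 0.16 for Htr1b (1.07e-14). Htr7, for example, was at 1.334 to 1.854 TPM in THy/PHy and 15.22 to 39.74 TPM in the 14 adult libraries. Slc6a4, at 0 to 0.2578 TPM in the adult, differed by 4.64 ± 1.04 (adjusted p = 0.000108), or by 3.94 without THy/PHy replicate 2 and 5.23 without ARH replicate 3. Fev had an adjusted p of 0.00701, which became 0.591 without THy/PHy replicate 2.

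H was also lower than the adult hindbrain nuclei for all 6 receptors with libraries apart, and for Tph2. This gave 7 of the 9 genes lower and none higher, where 21.1% of genes were lower and 23.0% higher. The share of all genes with libraries apart is not given here either. Htr1a differed by -3.22 ± 0.51 (adjusted p = 2.37e-07), Htr2c by -2.50 ± 0.56 (9.06e-05), Htr4 by -2.42 ± 0.45 (5.14e-06), Htr7 by -2.26 ± 0.33 (3.57e-08), Htr2a by -2.11 ± 0.38 (2.95e-06) and Htr1b by -1.88 ± 0.16 (7.42e-15). The value of Htr4 was -3.17 without H replicate 2. Tph2 differed by -2.69 ± 1.02 (adjusted p = 0.0172), and the call was lost without H replicate 1 (0.0661) or H replicate 2 (0.0959) and had -6.45 without H replicate 3. Embryonic and adult samples were prepared in separate batches, so stage and batch cannot be told apart in either comparison. Among other serotonin genes, Maob, which degrades monoamines, had log2 differences of -4.80 ± 0.25 in the hypothalamus and -3.25 ± 0.24 in the hindbrain, and Qdpr, which recycles the cofactor, had -2.80 ± 0.19 and -4.39 ± 0.21. In all, 8 of the 28 other genes were higher and 13 lower in THy/PHy, and 9 were higher and 13 lower in H.

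**Figure D5:**
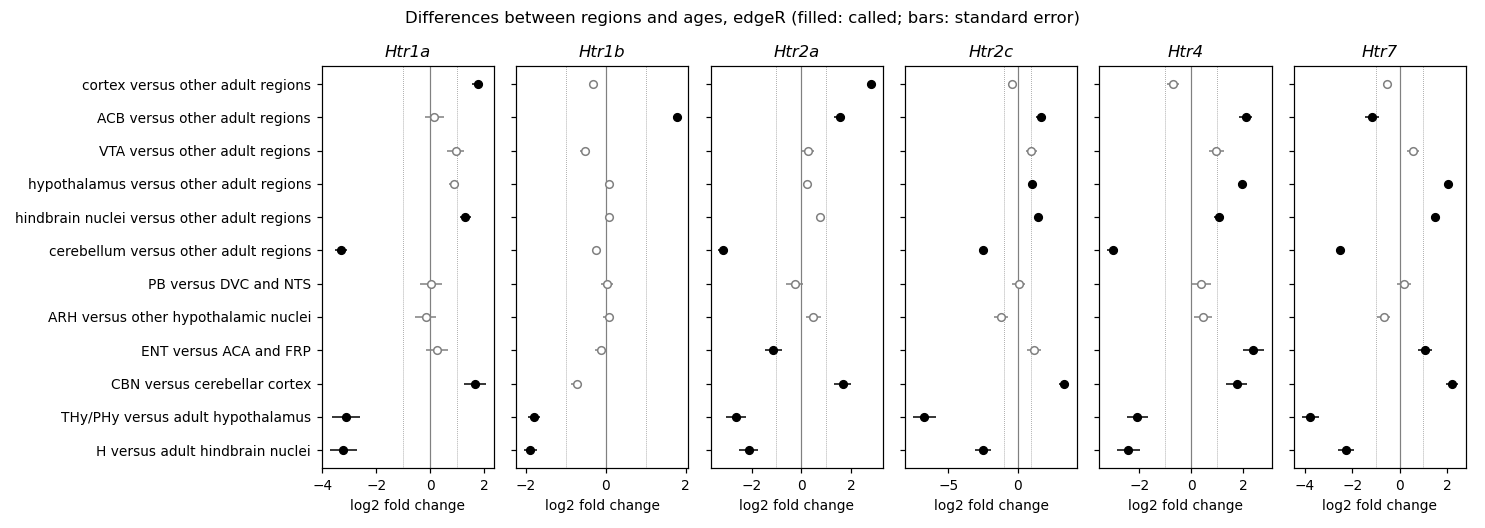
Log2 fold change of the 6 receptor genes in 12 comparisons by edgeR's quasi-likelihood test, with SE as bars, each gene on its own axis. Filled points passed an adjusted p of 0.05 with an absolute log2 fold change above 1 (dotted lines at -1 and 1), and Htr1b is called only in ACB among the adult comparisons.

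The change with age differed between hypothalamus and hindbrain in 5 of the 9 genes, 3 of them higher and 2 lower, where 3.46% of genes were higher and 6.38% lower. The embryonic minus adult log2 difference was more negative in the hypothalamus for Htr2c (by -4.24 ± 0.92, adjusted p = 0.000403) and Htr7 (by -1.52 ± 0.44, adjusted p = 0.00694). It was more positive for Slc6a4 (4.85 ± 1.53, adjusted p = 0.0127), Tph2 (3.76 ± 1.42, adjusted p = 0.0382) and Fev (adjusted p = 0.0302). The H libraries were choroid-rich and those of THy/PHy were not, which moves with the value of Htr2c and was not tested. The Slc6a4 call was lost without DVC replicate 1 (4.02, adjusted p = 0.1) and its value was 6.78 without H replicate 3. The Tph2 call was lost without any of DVC replicate 1, PB replicate 1, H replicates 1 or 2 and THy/PHy replicates 1 or 2, with values from 2.83 to 3.90, and was 7.51 without H replicate 3. The Fev call was lost without H replicate 1 or 3 or THy/PHy replicate 2.

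Of the 6 receptors, only Htr1b was measured in every library of the mESC clones, and the rest of the 6 had at most 2 estimated counts. Tph2 was at 0.2763 and 0.4448 TPM in B6-1 and 0.6941 and 0.4417 TPM in B6-2. Htr1b was 0.618 and 0.5273 TPM in B6-1 and 0.462 and 0.4617 TPM in B6-2, from 19 to 33 estimated counts. The 6 receptors summed to 0.639 ± 0.0181 TPM in B6-1 and 0.609 ± 0.099 TPM in B6-2 (SD, n = 2 each). Compared with mESC, the embryonic brain was higher for 6 of the 9 genes and lower for none, where 29.0% of genes were higher and 26.8% lower. These were Htr7 (adjusted p = 5.04e-11), Htr2a (7.66e-07), Htr4 (4.95e-06), Htr1a (2.8e-05), Htr2c (2.9e-05) and Slc6a4 (0.00509), and no fold change is given because mESC levels lay near 0. Htr1b differed by 0.98 ± 0.19 (adjusted p = 1.02e-05), and by 1.69 without F replicate 1, the single forebrain library, which had the lowest level at 0.2962 TPM. Without it Fev also passed (adjusted p = 0.00149). Of the 28 other genes, 13 were higher and 4 lower.

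Over the 10 adult comparisons the median log2 difference of the 9 genes ranged from -2.51 in the cerebellum to 1.66 in CBN, while the median over all genes stayed between -0.03 and 0.03. These medians are a description of the list.

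The genes whose group means followed each member most closely were named by Pearson's r of log2(mean TPM + 0.5) over the 24 groups among 19820 genes. For Tph2 these were Slc6a4 (0.968), Fev (0.860), the midbrain and hindbrain factor En1 (0.689), Gchfr (0.655) and C1ql4 (0.636). Slc6a4 had Tph2, Fev (0.913), En1 (0.748), Pax5 (0.723) and 9230102O04Rik (0.718) nearest, and Fev had Slc6a4, Tph2, 9230102O04Rik (0.781), Tal1 (0.747) and C1ql4 (0.740). For the receptors the first gene was Creg2 for Htr1a (0.960), Camk2b for Htr1b (0.934), Cckbr for Htr2a (0.960), Tekt5 for Htr2c (0.945), the opioid receptor gene Oprk1 for Htr4 (0.947) and Vwc2 for Htr7 (0.950). Acsl5 was among the 5 nearest of both Htr1a (0.953) and Htr2a. The points are 24 group means that differ in stage and batch, so these values are descriptions.

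The split of each gene between its annotated transcripts was read from the transcript table, with the limit that 33-base single reads tell transcripts apart only where their sequences differ. Tph2-201 held 99.7% of Tph2 TPM over all libraries, while Slc6a4-202 held 77.1% and Slc6a4-201 21.2% of Slc6a4. Fev-201, a coding transcript, held 72.0%, and the retained-intron transcript Fev-203 24.8%. Htr1b-202 held 85.9% of Htr1b, and Htr2c was divided between Htr2c-201 (50.5%) and Htr2c-207 (45.1%). Htr7 was divided among Htr7-202 (46.2%), Htr7-205 (23.1%) and a transcript annotated as a target of nonsense-mediated decay (19.7%). Htr1a, Htr2a and Htr4 have 1 transcript in the table.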

How the data were processed

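Poly(A) mRNA of 70 libraries was sequenced by the authors with a strand-specific kit and 33-base single reads, and base calls were made with CASAVA 1.8.2. The authors quantified transcripts with Kallisto against the GRCm38 cDNA and deposited estimated counts and TPM per transcript together with TPM per gene, and the strand setting of Kallisto is not given in the sources used here. For the tests, the estimated counts of a gene's transcripts were added up and rounded. Levels are the deposited TPM, and positions are from GENCODE M21.

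Differences were tested with edgeR 4.0.16 (R 4.3.3), by the quasi-likelihood test after TMM normalization in a single fit of all 70 libraries over the 19980 genes that passed the filter on low counts. Groups carried equal weight within an area, and no covariate was used. A gene was called where the log2 fold change exceeded 1 in size and the Benjamini-Hochberg adjusted p was below 0.05. The named genes were the 9 members, the members of the fixed list of 29 further serotonin genes (28 tested) by their values, and the 5 genes most alike to each member. Members and lists were chosen with earlier results of these data known. Alternatives were no filter, DESeq2 1.42.0, limma 3.58.1 on log2(TPM + 0.5) and log2(TPM + 0.1), the compared libraries only, a replicate block and each library left out. Those without CENT2 replicates 1 and 2 or without the choroid-rich libraries were chosen after seeing the data. The labels do not tie pools to animals, so p-values measure the spread between pools, which may be technical. The study lists the batches of each region's samples without naming the library, so no library was assigned to a batch and no within-batch value is given. The calling script was tested on simulated data.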

Additional observations from a re-analysis of the deposited data

Results flagged for a closer look

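In groups of 4 libraries, a library stood far from the other 3 in 3 of 45 cases, where chance gives about 1 in 20. The gap to the nearest library, divided by the range of the group, was 0.954 for Htr2a in CENT2 replicate 1 (3.186 TPM), 0.856 for Htr2a in NTS replicate 4 (6.472 TPM) and 0.842 for Htr7 in NTS replicate 3 (15.92 TPM). CENT2 replicate 1 is also the library with the most Tph2.

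The embryonic minus adult difference was not the same in hypothalamus and hindbrain by the test of the difference itself (edgeR's quasi-likelihood test with Benjamini-Hochberg adjustment). On the log2 scale the hypothalamic value minus the hindbrain value was 4.85 for Slc6a4 (adjusted p = 0.0127), 3.76 for Tph2 (0.0382), -1.52 for Htr7 (0.00694) and -4.24 for Htr2c (0.000403). For Fev the fitted value was 4.12 (0.0302), which depends on the prior count because some libraries were at 0.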

How the results depend on the processing

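There were 66 calls in 16 comparisons. Under the alternatives other than leaving out a library, 436 of 462 were kept, 26 no longer passed both thresholds and none reversed. The 462 leave out Fev where it was not tested with the compared libraries only. These were PB against DVC and NTS, H against M, and THy/PHy against the adult hypothalamus. With each library left out, 2069 of 2102 were kept, 32 no longer passed both thresholds and 1 reversed, Fev in H against M, at 1.21 without M replicate 2, where the values with a library left out ran from -5.69 to 1.21. Counts of members called moved by over 1.5 times as follows. Cortex had 5 with DESeq2 and 4 with limma on log2(TPM + 0.1), in place of 2. VTA had 6 and the hypothalamus 7 without CENT2 replicates 1 and 2, in place of 3 and 4. ARH had 1 in place of 0 without CENT2 replicates 1 and 2, without the choroid-rich libraries and with the compared libraries only. ENT had 1 with limma on log2(TPM + 0.1) in place of 3. H against M had 1 in place of 2 without a filter and with limma at either pseudocount. It had 0 with the compared libraries only, a fit of 5 libraries that called 0 of 16017 genes by edgeR and did not test Fev. In all 70 libraries 1705 genes were called by edgeR and 1767 by DESeq2. At an unadjusted p under 0.05 by edgeR there were 2361 genes in the fit of 5 libraries and 7980 in all 70. THy/PHy against M and H had 2 with DESeq2 in place of 1. The age difference between hypothalamus and hindbrain had 2 with limma on log2(TPM + 0.5) and 3 with log2(TPM + 0.1) in place of 5. The cause of these changes was not tested.

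With a library left out, the counts ranged from 2 to 3 in cortex, 5 to 5 in ACB, 3 to 6 in VTA, 3 to 5 in the hypothalamus, 6 to 7 in the hindbrain nuclei, 5 to 5 in the cerebellum, 2 to 3 in PB, 0 to 0 in ARH, 1 to 3 in ENT and 5 to 5 in CBN. They ranged from 0 to 3 in H against M, 1 to 1 in THy/PHy against M and H, 7 to 8 in THy/PHy against the adult, 6 to 7 in H against the adult, 6 to 8 in embryonic brain against mESC and 3 to 5 in the age difference.

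A replicate block kept 65 of the 66 calls, with 1 call left in H against M and Htr2c gained in VTA (1.04, adjusted p = 0.0206). The numbers are not taken to pair the libraries, since 669 same-numbered pairs had a median r of 0.00804 and 26 of 69 libraries correlated best with their own number.

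With limma on TPM the median log2 difference of all genes was -0.39 and -0.47 in VTA, against -0.01 with edgeR, and 0.20 and 0.27 between embryonic brain and mESC, against 0.00. Fev and Htr4 rested on few counts, so small differences in them were not detectable at this depth.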
